A study of Mus musculus with 2 samples.

Results

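The genes described here are 47 DNA replication and S phase genes, measured by RNA sequencing of embryonic mouse midbrain. They were taken by gene symbol, by a rule that did not use their measured values, though with earlier results of these data known. All 47 were matched to 1 row each among the 43346 Ensembl genes of a gene table. Midbrain came from healthy embryos of the strain B6NCrl, a C57BL/6 substrain, at embryonic day 15.5, with males and females pooled. Replicate 1 was a pool of 78 embryos and replicate 2 a pool of 62 embryos, and there was no treated or second group. Each library was made from 10 ng of RNA longer than 200 nt, with spike-in RNA added. Because each library holds many embryos and many cell types, differences between single embryos or single cells were averaged, and a change in the number of cells cannot be told apart from a change in RNA per cell.

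DNA is copied in S phase from sites that were licensed beforehand. The origin recognition complex, Cdc6 and Cdt1 load the MCM ring onto DNA. Cdc45 and the GINS complex then join the ring to form the moving helicase, and polymerase alpha with primase lays down primers that polymerases delta and epsilon extend. PCNA is the sliding clamp that holds the polymerases on DNA, replication factor C is its loader, and Fen1 and Lig1 finish the lagging strand. Many of these genes are known targets of E2F factors, which activate or repress transcription around the start of S phase. In embryonic brain the dividing cells are mainly progenitors in the ventricular and subventricular zones, while neurons have left the cell cycle.

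The start regions of the replication genes are shown first, because they carry a sequence feature that the choice of genes did not use. RefSeq windows on GRCm38.p6, of 300 bases with 250 bases before the annotated start, were given for 39 of the 47 genes, in 46 windows. Mcm4, Gins1, Gins2, Gins4, Gmnn, Pole, Prim2 and Rfc2 had no window and were not searched. An E2F motif was counted as any of the 4 words TTTCGCGC, TTTGGCGC, TTTCCCGC and TTTGCCGC on either strand, overlaps allowed. Such a motif was present for 15 of the 39 genes, or 38.5%, against 704 of 27025 genes with a window, or 2.60%. The stretches below run from 170 bases before the start to 30 bases after it, written 5′ to 3′ on the strand of the gene, with E2F motifs in capitals. They show the MCM genes with a motif, Orc1 and Rfc3, and then Mcm2, an MCM gene whose window held none of the 4 words.
Mcm3 (chr1:20820283-20820482, minus strand): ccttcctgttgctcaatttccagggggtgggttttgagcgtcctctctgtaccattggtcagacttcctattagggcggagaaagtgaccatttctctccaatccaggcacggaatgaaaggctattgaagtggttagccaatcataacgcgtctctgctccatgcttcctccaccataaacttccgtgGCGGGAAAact
Mcm5 (chr8:75109339-75109538, plus strand): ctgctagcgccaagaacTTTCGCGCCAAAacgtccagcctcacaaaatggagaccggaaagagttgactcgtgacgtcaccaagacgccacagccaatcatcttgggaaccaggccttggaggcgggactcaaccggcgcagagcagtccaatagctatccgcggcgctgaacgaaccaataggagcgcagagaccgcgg
Mcm6 (chr1:128359676-128359875, minus strand): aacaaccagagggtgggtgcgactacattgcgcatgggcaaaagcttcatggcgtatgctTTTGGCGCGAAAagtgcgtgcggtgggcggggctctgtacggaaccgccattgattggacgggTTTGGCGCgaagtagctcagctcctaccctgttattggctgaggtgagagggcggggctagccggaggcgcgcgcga
Mcm7 (chr5:138171854-138172053, minus strand): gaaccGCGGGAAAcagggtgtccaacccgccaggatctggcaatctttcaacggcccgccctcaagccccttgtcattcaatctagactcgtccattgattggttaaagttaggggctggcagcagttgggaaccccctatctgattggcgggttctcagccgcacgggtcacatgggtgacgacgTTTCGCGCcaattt
Orc1 (chr4:108579284-108579483, plus strand): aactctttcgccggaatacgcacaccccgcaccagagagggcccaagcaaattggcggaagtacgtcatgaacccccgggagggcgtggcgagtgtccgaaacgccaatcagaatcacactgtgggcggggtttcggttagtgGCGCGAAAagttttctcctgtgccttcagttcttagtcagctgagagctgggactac
Rfc3 (chr5:151651179-151651378, minus strand): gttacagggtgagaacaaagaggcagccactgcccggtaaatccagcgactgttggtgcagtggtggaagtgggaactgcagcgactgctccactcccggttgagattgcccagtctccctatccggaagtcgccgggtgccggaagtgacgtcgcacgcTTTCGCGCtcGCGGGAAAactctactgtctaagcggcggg
Mcm2 (chr6:88898751-88898950, minus strand): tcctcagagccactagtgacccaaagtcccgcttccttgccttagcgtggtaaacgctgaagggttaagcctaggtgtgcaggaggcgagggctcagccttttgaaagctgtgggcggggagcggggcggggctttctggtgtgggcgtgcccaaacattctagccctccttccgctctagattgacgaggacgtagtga

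In Mcm5 and Mcm6 a pair of motifs on opposite strands overlapped, so that the capitals form 1 longer block. Mcm6 held a further copy nearer to its start. Mcm7 carried motifs at positions -165 and 17 from the start shown, while the window of its other annotated start held none. In Mcm3 a motif began at base 20 of the transcript, and a further one at base 39 lies outside the stretch shown. In Rfc3, which encodes a clamp loader subunit, the motifs began at position -10 and at the first base of the transcript, and the motif of Orc1 began at position -27. The remaining genes with a motif were Cdc6, Cdt1, E2f2, Gins3, Lig1, Pola1, Pold1, Pold3 and Pole2.

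Of 21 E2F matches in the windows, 11 began before the start and 10 from the start on. The shorter core GGCGC, on either strand and so including GCGCC, was found in 33 of the 39 genes (84.6%) and in 39.4% of all genes with a window. It overlaps the words TTTGGCGC and, in part, TTTCGCGC. The CCAAT box, a common promoter word bound by NF-Y, was found in 24 of the 39 genes (61.5%) and in 41.1% of all genes. Windows of the replication genes were also richer in G and C, with a median of 58.8% against 52.7% in all windows. The part of base composition in these shares was not tested. Among other gene lists, 16 of 48 further replication genes and 1 of 17 mitosis genes held an E2F motif, as did 0 of 10 radial glia genes and 0 of 6 immature neuron genes. The 15 replication genes with a motif had a median level of 16.3 ± 1.11 TPM (SD, n = 2), and the 24 with a window and no motif had a median of 24.6 ± 0.0318 TPM (SD, n = 2). Both groups ranged widely, from 1.09 to 77.0 TPM with a motif and from 1.98 to 77.3 TPM without. A match describes letters in the reference and is not evidence that a factor binds there.

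**Figure D1:**
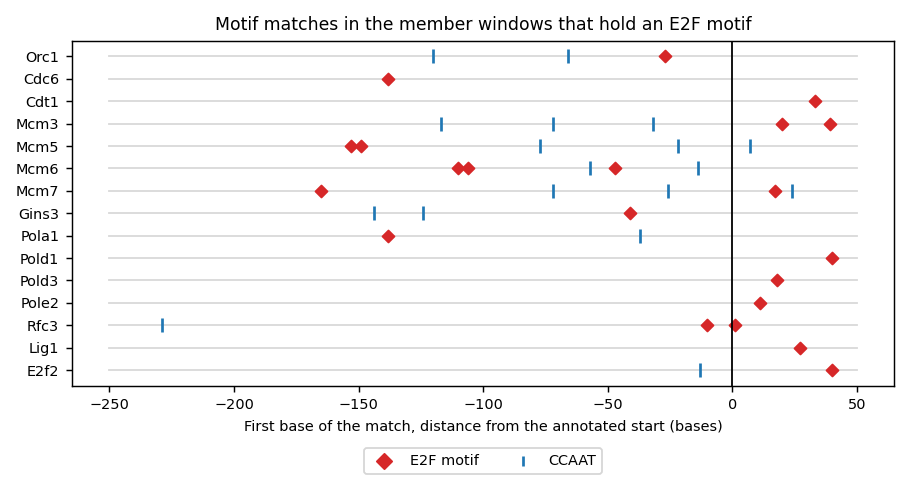
Positions of E2F motifs (red diamonds) and CCAAT boxes (blue ticks) in the RefSeq windows that hold an E2F motif, 1 line per gene; the x axis is the distance of the first base of the match from the annotated start, in bases. Of the 21 E2F matches, 11 lie before the start and 10 from the start on, and Mcm6 has 3.

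Levels are given in TPM, a unit scaled by library and by transcript length, so that genes can be set side by side. Both libraries held 46 of the 47 genes at a level of at least 1 TPM, a share to be read against 35.4% of all 43346 Ensembl genes. The 2 sets are unlike, since all 47 are protein coding and the 43346 include pseudogenes and noncoding genes. Of the 15347 Ensembl genes at that level in both libraries, 13401 were protein coding. The 1 replication gene below it was Orc1, the largest subunit of the origin recognition complex, with 0.81 TPM in replicate 1 and 1.37 TPM in replicate 2. Over the 47 genes the median was 21.4 TPM for replicate 1 and 20.7 TPM for replicate 2, a mean of 21.04 ± 0.54 (SD, n = 2). The 13401 protein-coding genes that reached 1 TPM in each library had a median of 20.3 ± 0.014 TPM, and 25 of the 47 genes lay above it. In both libraries 38 genes reached 5 TPM, 34 reached 10 TPM, 24 reached 20 TPM and 5 reached 50 TPM. The replication genes ranged from Orc1 at 1.09 ± 0.40 TPM to Rfc2 at 87.1 ± 3.94 TPM (SD, n = 2). Rfc2 lay above 85.2% of the expressed protein-coding genes, whose levels reached 16021 TPM. The order of the genes was close in both libraries, with 40 of 47 within 2 ranks.

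The licensing genes serve to load the MCM ring or, in the case of Gmnn, to hold that loading back. Orc6, a small subunit of the origin recognition complex, was the highest of them at 43.2 TPM in replicate 1 and 39.2 TPM in replicate 2. Orc2, a core subunit, followed with 17.4 and 18.0 TPM. Gmnn, which encodes geminin, the inhibitor of Cdt1, had 14.1 and 11.9 TPM. Its target Cdt1, which brings the MCM ring to origins, was lower at 6.53 and 5.54 TPM. Cdc6, the ATPase that works with Cdt1, was lower still at 3.19 and 3.43 TPM. The 6 genes kept this order in both libraries, and no neighbours overlapped. Their median was 9.51 ± 1.13 TPM (SD, n = 2), so the loaders Cdc6 and Cdt1 were below the median of expressed coding genes and far below the ring that they load.

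The MCM ring is built from 6 related subunits, Mcm2 to Mcm7, in equal number. Mcm7 was the highest, with 76.5 TPM in replicate 1 and 77.4 TPM in replicate 2. Mcm6 came next at 48.6 and 42.8 TPM. The remaining 4 were close together. Mcm4 had 23.3 and 21.7 TPM, Mcm2 had 23.2 and 19.6 TPM, Mcm5 had 21.3 and 20.9 TPM, and Mcm3 had 17.1 and 15.5 TPM. The range of Mcm2 overlapped those of Mcm4 and Mcm5, so its place among them is not resolved, whereas Mcm3 lay below all 3 in both libraries. From the lowest to the highest subunit the mean gene TPM differed 4.73-fold, for subunits that the protein complex holds in equal number. Shorter transcripts made up part of the lead of Mcm7. Its leading transcript, Mcm7-201 of 2962 nt, was alone at 49.6 and 45.8 TPM. The leading transcript of Mcm6, Mcm6-201, was at 46.1 and 40.8 TPM. Mcm7 lies at chr5:138164583-138172422 on the minus strand and shares 7.25% of its exon bases with Ap4m1 and 1.45% with Cops6, both on the other strand.

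Origin firing genes turn the loaded ring into an active helicase. Gins4, a subunit of the GINS complex, was at 43.7 TPM in replicate 1 and 43.4 TPM in replicate 2. Its partner subunits were lower. Gins2 had 13.3 and 12.2 TPM, Gins1 had 12.3 and 12.2 TPM, and Gins3 had 5.24 and 4.70 TPM. Cdc45, the helicase partner of GINS, had 6.90 and 5.58 TPM. Mcm10, a firing factor outside the ring, was the lowest of the group with 4.10 and 2.89 TPM. The mean levels of this group spanned 12.5-fold, with a median of 9.25 ± 0.50 TPM (SD, n = 2). By gene TPM, Gins1 and Gins2 were not separated beyond the spread of the libraries. Over protein-coding transcripts alone Gins2, at 6.46 and 5.03 TPM, was below Gins1, at 10.94 and 10.86 TPM, in both.

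For polymerases alpha and delta, the catalytic subunit was lower than the accessory subunits measured. Pola1, the catalytic subunit of polymerase alpha, had 4.41 TPM in replicate 1 and 4.37 TPM in replicate 2, while its B subunit Pola2 had 15.96 and 15.87 TPM. The primase subunits Prim1, which makes the primer, and Prim2 had 34.4 and 30.2 TPM and 17.8 and 17.1 TPM. For polymerase delta, the catalytic Pold1 had 22.4 and 22.1 TPM, below Pold2 with 49.5 and 42.0 TPM and Pold3 with 48.6 and 58.7 TPM. Pold2 and Pold3 changed places between the libraries, but over protein-coding transcripts alone Pold2, at 45.98 and 40.39 TPM, was above Pold3, at 31.6 and 31.7 TPM, in both. For polymerase epsilon, the catalytic subunit Pole had 6.25 and 5.99 TPM. By gene TPM its accessory subunit Pole2 was lower at 3.35 and 2.34 TPM, while the small subunits Pole3, at 51.1 and 47.9 TPM, and Pole4, at 87.8 and 83.1 TPM, were higher. The place of Pole above Pole2 rested on shorter Pole transcripts. Its longest transcript, Pole-201 of 7163 nt, was alone at 2.24 and 2.27 TPM, below Pole2 in both libraries. Over all its protein-coding transcripts Pole was at 4.66 and 5.41 TPM.

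The clamp and its loader were the highest group, with a median of 44.6 ± 2.45 TPM (SD, n = 2). Pcna, at chr2:132249162-132253314 on the minus strand, had 79.4 TPM in replicate 1 and 75.1 TPM in replicate 2. Of the loader subunits, Rfc2 was the highest of all 47 genes at 89.9 and 84.3 TPM. Rfc3 had 59.3 and 52.3 TPM, Rfc4 had 33.5 TPM in both libraries, and Rfc5 had 25.9 and 27.0 TPM. The large subunit Rfc1 was the lowest at 21.4 and 22.4 TPM. These 6 genes kept their order in both libraries.

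By gene TPM, genes for single-stranded DNA binding and Okazaki fragment processing lay in a narrow range. Rpa1, the large subunit of the single-strand binding protein RPA, had 40.04 TPM in replicate 1 and 40.16 TPM in replicate 2, and Rpa2 had 28.3 and 26.7 TPM. The ligase gene Lig1 had 29.7 and 27.7 TPM, and the flap nuclease gene Fen1 had 22.7 and 20.7 TPM. Their highest mean was 1.85-fold their lowest. Lig1 and Rpa2 were in the same order in both libraries, but their ranges overlapped. The level of Lig1 rested in part on short transcripts. Its leading one, Lig1-206 of 944 nt, took 38.6% and 46.5% of its TPM. The longer Lig1-201, of 3091 nt, was at 7.17 and 8.26 TPM, so the narrow range holds for gene TPM only.

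Nucleotide supply genes had a median of 34.8 ± 2.31 TPM (SD, n = 2). Dut, whose enzyme clears dUTP, was the highest at 56.5 TPM in replicate 1 and 56.9 TPM in replicate 2. The ribonucleotide reductase subunits were close to each other, Rrm2 with 39.9 and 37.6 TPM and Rrm1 with 36.4 and 33.1 TPM. Tyms, thymidylate synthase, had 35.2 and 32.3 TPM, a range that overlapped that of Rrm1. Tk1, the thymidine kinase of the salvage route, was lower at 16.3 and 12.5 TPM. Over protein-coding transcripts alone this order turned, with Tyms at 4.34 and 3.73 TPM and Tk1 at 7.98 and 6.36 TPM.

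The E2F factors were near the bottom. E2f1, an activator, had 5.83 TPM in replicate 1 and 4.40 TPM in replicate 2. E2f2, another activator, had 1.85 and 1.83 TPM, and E2f8, a repressor of the family, had 1.94 and 2.02 TPM. The subunits of chromatin assembly factor 1, which places histones behind the fork, were low to moderate, Chaf1b with 12.6 and 13.9 TPM and Chaf1a with 5.55 and 5 TPM.

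**Figure D2:**
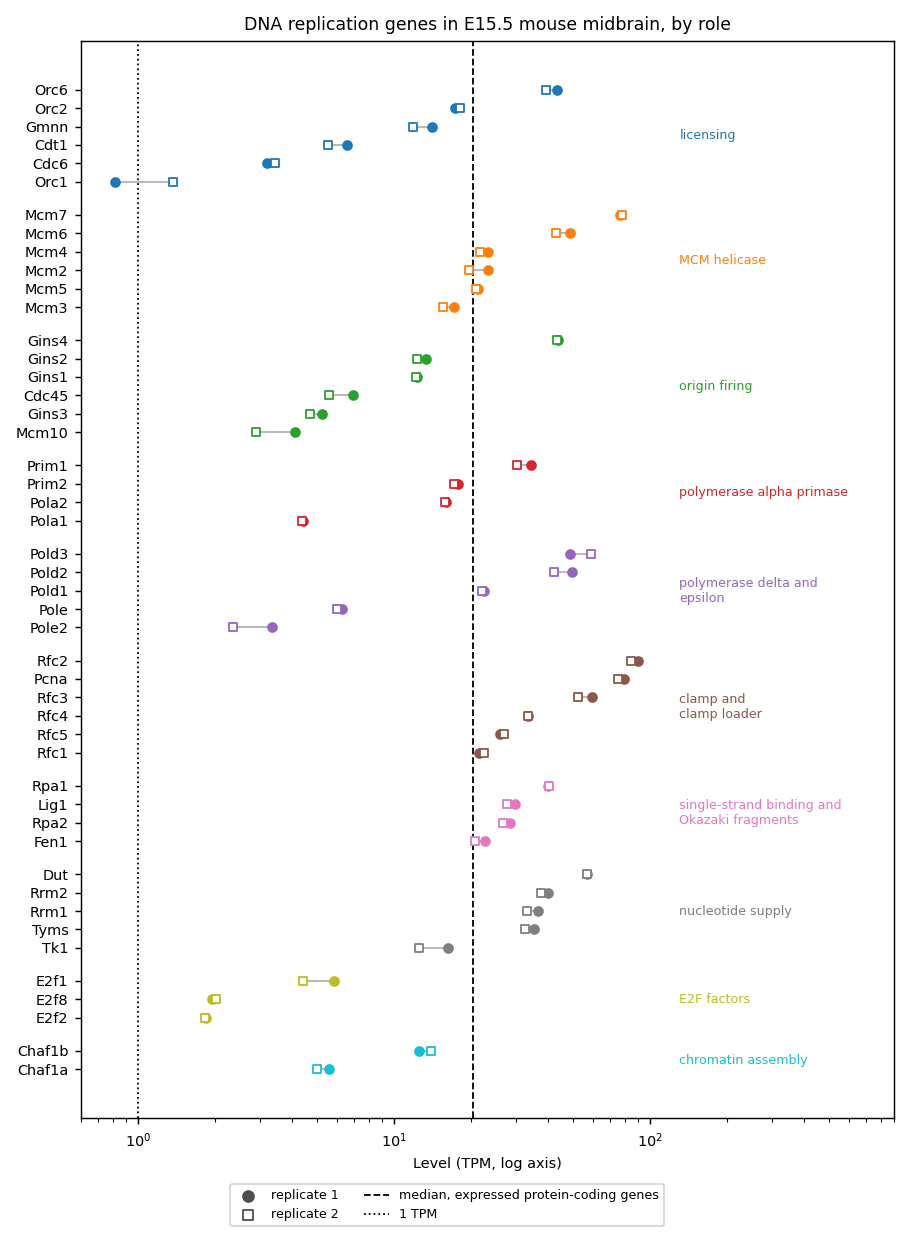
Level of each of the 47 genes in TPM on a log axis, grouped by role; filled circles are replicate 1, open squares replicate 2, the dashed line is the median of expressed protein-coding genes (20.3 TPM) and the dotted line 1 TPM. The clamp and loader genes lie at or above the dashed line, from 21.4 TPM for Rfc1 in replicate 1 to 89.9 TPM for Rfc2, and the E2F factors lie far below it.

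The pools were then compared gene by gene, which shows how far the levels of the replication genes differ between these libraries. Counts were scaled by TMM library sizes and tested with a two-sided exact binomial test over the 18269 genes averaging at least 10 counts, with Benjamini-Hochberg adjustment. A gene was called at an adjusted p under 0.05 and a difference of 2-fold or more, and the test compares these 2 libraries, not conditions. None of the 47 genes was called, in a background where 298 of 18269 genes, or 1.63%, were called, 0.898% as higher in replicate 1 and 0.733% as higher in replicate 2. Among the 14810 genes averaging at least 50 counts, a filter that all 47 pass, 67 or 0.452% were called. With such low shares, 0 of 47 does not set the replication genes apart. With edgeR's exact test and an assumed coefficient of variation of 0.1 the count was also 0 of 47, against 0.821% of all genes. At an unadjusted p under 0.05, 18 of 47 passed the binomial test, as did 5569 of all 18269 genes. By scaled counts all 47 lay within 1.5-fold, as did 91.8% of all genes tested and 98.6% of expressed protein-coding genes. The farthest apart were Pole2, 1.43-fold higher in replicate 1, and Orc1, at 48 counts in replicate 1 and 69 in replicate 2, whose TPM values of 0.81 and 1.37 lie farther apart than 1.5-fold.

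Without a fold threshold, 12 of the 47 genes passed the adjusted p and all were higher in replicate 1. Over all genes tested, 10.1% passed as higher in replicate 1 and 9.18% as higher in replicate 2. By role the 12 were Orc6 in licensing, Mcm2, Mcm3 and Mcm6 in the ring, Gins2, Prim1, the polymerase subunits Pold2 and Pole2, the loader subunit Rfc3, Rrm1 and Tk1 in nucleotide supply, and E2f1. No gene of the single-strand binding and Okazaki group or of chromatin assembly was among them.

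The subunits of the ring show the size of these differences. Mcm2 had 1771 counts in replicate 1 and 1546 in replicate 2, a log2 ratio of replicate 2 over replicate 1 of -0.24 (exact binomial test, adjusted p = 3.07e-05). Mcm6 had 3260 and 2971 counts, a log2 ratio of -0.18 (exact binomial test, adjusted p = 1.97e-05). Mcm5 had 1656 and 1675 counts, a log2 ratio of -0.03 (exact binomial test, adjusted p = 0.747), and the 95% counting interval of its scaled fold ran from 0.914 to 1.05. All 6 ring subunits were lower in replicate 2 after scaling, and 3 of them passed the test.

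Larger ratios came from genes with fewer counts. E2f1 had 359 counts in replicate 1 and 280 in replicate 2, a log2 ratio of -0.40 (exact binomial test, adjusted p = 0.00429). Pole2 had 125 and 90 counts, a log2 ratio of -0.52 (exact binomial test, adjusted p = 0.0491). Tk1 had 392 and 327 counts, a log2 ratio of -0.31 (exact binomial test, adjusted p = 0.0282). Orc1 went the other way with a log2 ratio of 0.47, which did not pass (exact binomial test, adjusted p = 0.226), and its counting interval ran from 0.949-fold to 2.06-fold. Of the clamp and loader genes, Rfc3 had 1619 and 1499 counts, a log2 ratio of -0.16 (exact binomial test, adjusted p = 0.0167). Pcna, with a log2 ratio of -0.08, and Rfc2, with -0.09, did not pass.

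Taken as a list, 39 of the 47 genes had a lower scaled count in replicate 2, beside 50.8% of all genes tested. Their median log2 ratio was -0.09, with quartiles of -0.18 and -0.01, and the median of all genes tested was -0.003. By TPM, 35 of the 47 were lower in replicate 2. Summed over the 47 genes, the scaled count of replicate 2 was 0.937-fold that of replicate 1, with a 95% counting interval of 0.926 to 0.948. For 29 of the 47 genes the counting interval of the fold held 1. The median of the list was below 0 under each scaling tried, -0.08 with DESeq2 size factors, -0.09 with total counts and -0.17 with spike-in totals, where the median of all genes was also lower, at -0.09.

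**Figure D3:**
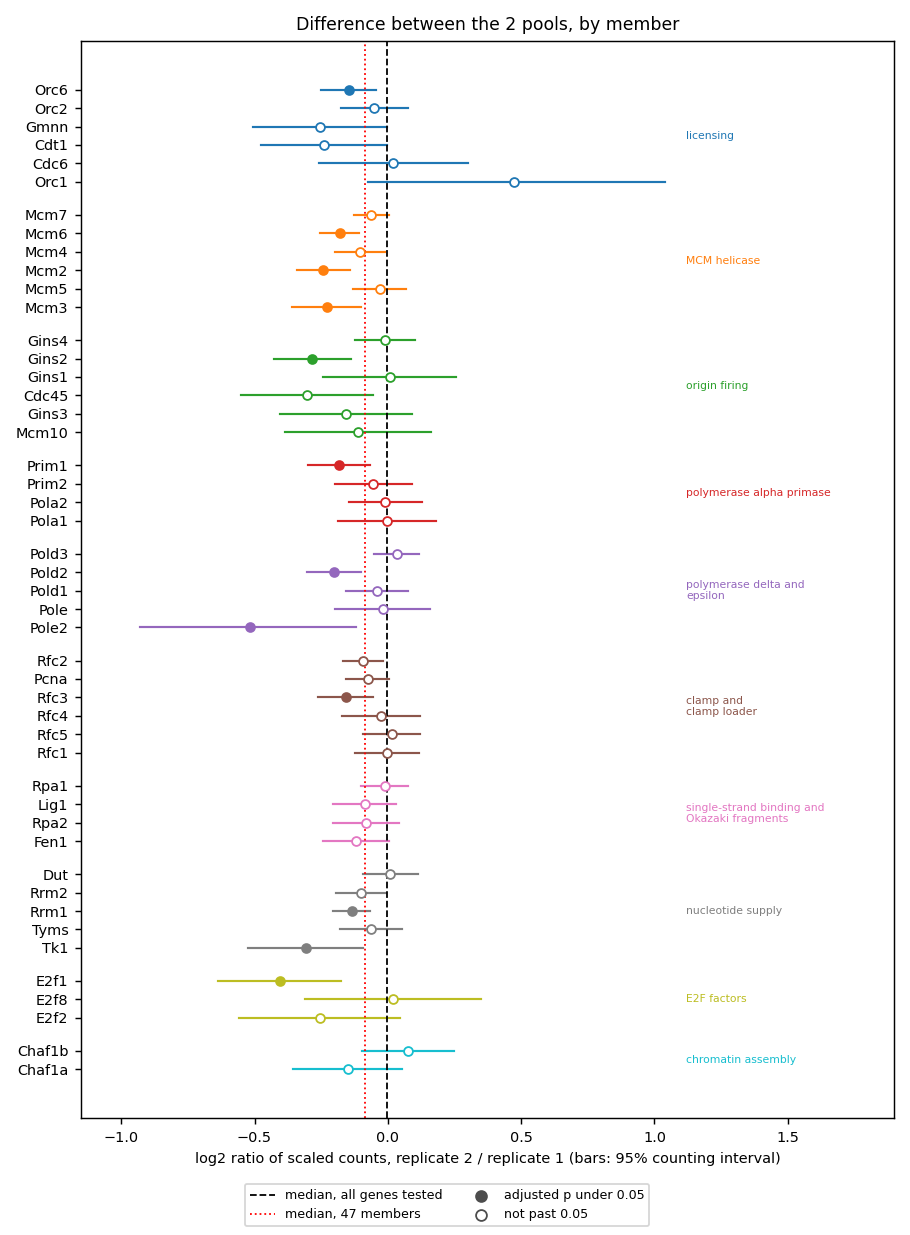
Log2 ratio of scaled counts, replicate 2 over replicate 1, for each of the 47 genes by role, with bars for the 95% counting interval; filled points passed an adjusted p of 0.05, the black dashed line is the median of all genes tested and the red dotted line that of the 47 genes. The 12 filled points all lie left of the black line, from -0.52 for Pole2 to -0.14 for Rrm1.

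Other lists also differed between the pools. Of 60 further replication genes, 38 were lower in replicate 2, with a median log2 ratio of -0.05, and 11 passed the adjusted p as higher in replicate 1 and 4 as higher in replicate 2. Of the 20 mitosis genes, all 20 were lower in replicate 2, with a median of -0.35, and 15 passed the adjusted p. The most abundant of them was Cdk1, the mitotic kinase, with 54.2 and 50.95 TPM. Summed over the mitosis list, the level came to 423.0 and 345.3 TPM, and no mitosis gene was at 0. Radial glia and progenitor genes were lower for 11 of 13, with a median of -0.17 and sums of 1878 and 1772 TPM. Immature neuron genes had a median of 0.03, with 7 of 11 higher in replicate 2. Of the 9 midbrain identity genes, 5 were lower in replicate 2, with a median of -0.26 and sums of 182.8 and 165.9 TPM, and 4 passed the adjusted p, all higher in replicate 1.

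Marker lists of other cell types were set beside these values. Erythroid genes were lower in replicate 2 for 8 of 10 with a median of -0.33 and sums of 14897 and 11698 TPM. Microglia and macrophage genes were lower for 8 of 10 with a median of -0.29 and sums of 191.4 and 153.2 TPM. Meninges and fibroblast genes were lower for 9 of 9 with a median of -0.14 and sums of 551.9 and 475.1 TPM. Endothelium genes were lower for 8 of 10 with a median of -0.08, and oligodendrocyte precursor genes had 3 of 6 lower and a median of -0.02. None of these marker genes was at 0 in either library. The part of such cells in the difference of the replication genes was not tested.

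**Figure D4:**
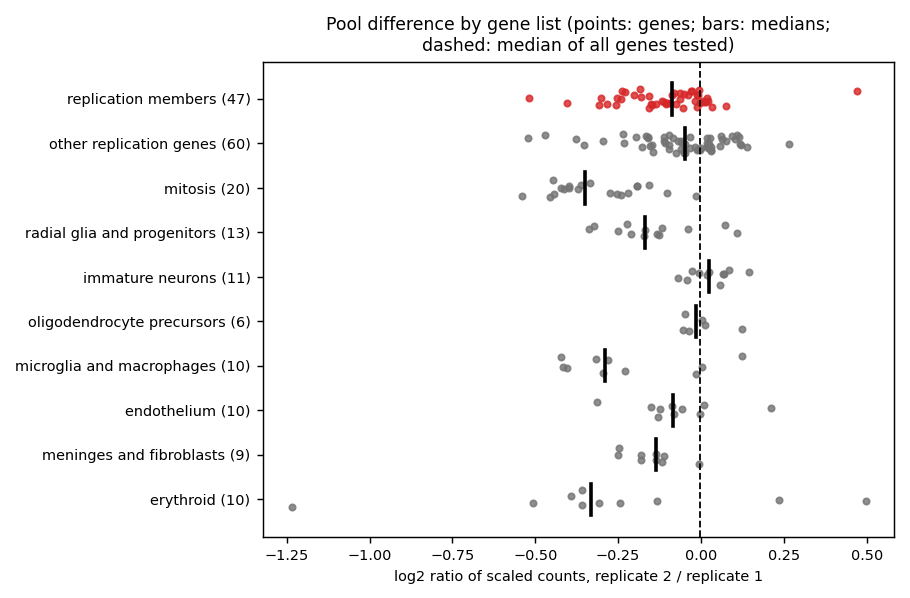
Log2 ratio of scaled counts, replicate 2 over replicate 1, with 1 point per tested gene in each list, a black bar for the list's median and a dashed line for the median of all genes tested; numbers in brackets are genes tested. The 47 replication genes have a median of -0.09, between the further replication genes at -0.05 and the mitosis genes at -0.35.

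Of the further replication genes, 59 of 60 were at 1 TPM or more in both libraries, with a median of 15.6 ± 0.42 TPM (SD, n = 2). The exception was Ticrr, an origin firing factor, with 1.08 and 0.75 TPM. The highest were Dtymk, thymidylate kinase, with 111.1 and 119.0 TPM, Slbp, which binds histone mRNA, with 90.8 and 91.5 TPM, and Pole4, a small subunit of polymerase epsilon, with 87.8 and 83.1 TPM. The mitosis list had a median of 15.1 ± 2.58 TPM and the radial glia list one of 35.7 ± 0.96 TPM (SD, n = 2). The immature neuron list was at 902.8 ± 11.6 TPM, led by Stmn1 with 6162 and 6249 TPM. On the log2 scale with 1 TPM added, the median of the 47 genes was 5.36 ± 0.05 below that of the immature neuron list and 0.73 ± 0.003 below that of the radial glia list (SD, n = 2).

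Part of the level of some genes came from transcripts that are not annotated as protein coding, or that M21 does not list. In the authors' transcript tables, 37 of the 47 genes had more than 1 transcript, and the leading one was the same in both libraries for 36. The exception was Fen1, where Fen1-202 took 49.1% of the gene's TPM in replicate 1 and 29.7% in replicate 2, and Fen1-201 took 29.0% and 44.5%. Both are annotated as protein coding. Dut was led by Dut-202 at 76.7% and 75.7%, with Dut-201 at 23.3% and 23.8%. Protein-coding transcripts made up at least 80% of the TPM in both libraries for 35 genes, less in both for 9 and less in 1 library for 3.

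The genes below that level differed in kind. Tyms was led by Tyms-205, which is annotated as a target of nonsense-mediated decay and took 41.3% and 34.9% of its TPM. Retained-intron transcripts took a further 39.2% and 48.5% of Tyms, and its coding transcript took 12.3% and 11.5%. Rfc1 was led by a transcript of 485 nt that is not in the M21 annotation and took 41.9% and 41.5%. Longer Rfc1 transcripts of 4751 and 3588 nt are not in M21 either, and transcripts without a class held 75.8% and 78.5% of its counts. Its small protein-coding share therefore counts transcripts absent from M21 as not coding and is no measure of noncoding RNA. The 1 coding transcript in M21 was at 2.52 and 2.24 TPM. For Tk1, retained-intron transcripts took 50.98% and 49.1%, and for Gins2 they took 51.5% and 58.9%.

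Short transcripts weighed more in TPM than in counts. For Pold3, a transcript of 186 nt that is not in M21 took 21.95% and 30.15% of the TPM from 21.7 and 37.2 expected counts, out of 2292 and 2422 for the gene. Coding transcripts put Pold3 at 31.6 and 31.7 TPM, so that the gap between its TPM values in the libraries, 48.6 and 58.7, was not present there. For Mcm10, retained-intron transcripts took 46.3% in replicate 1 and 25% in replicate 2. The log2 ratio of Mcm10 was -0.50 by TPM and -0.11 by counts, while its coding transcripts were at 2.06 and 2.16 TPM. For Orc1, coding transcripts were at 0.69 and 0.89 TPM, and its value above 1 TPM in replicate 2 rested on noncoding transcripts of 670 and 679 nt with 4.48 and 2.23 expected counts. Counted over transcripts that M21 gives as coding, with the others left out, the median of the 47 genes was 15.9 ± 0.064 TPM (SD, n = 2), and 46 genes reached 1 TPM in both libraries. These shares are estimates from the authors' quantification, and the read layout behind them is not given in the sources used here.

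**Figure D5:**
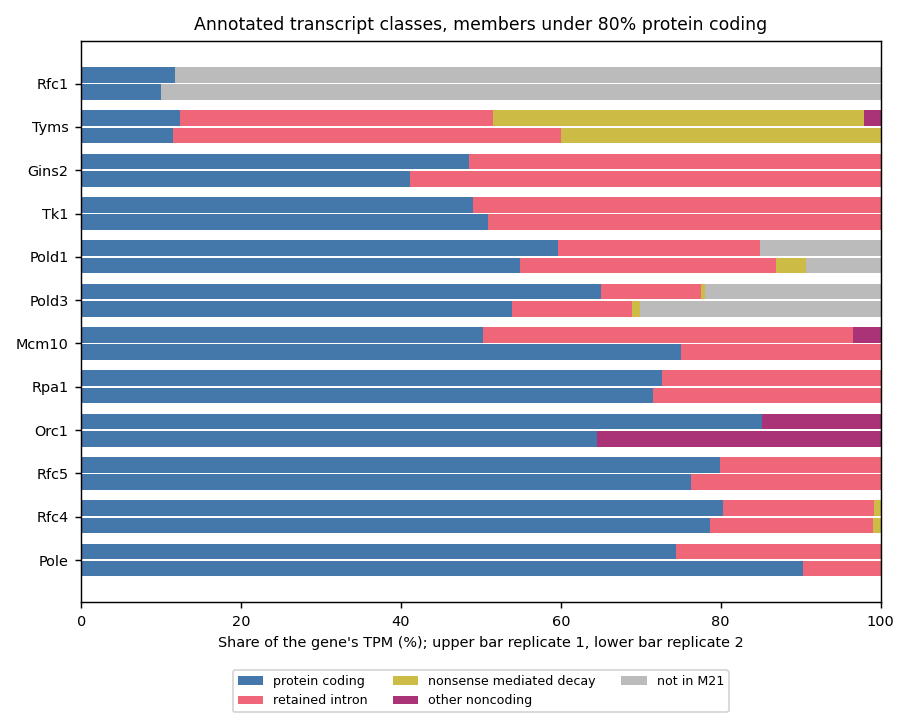
Share of each gene's TPM by annotated transcript class for the 12 genes under 80% protein coding in at least 1 library; the upper bar of each pair is replicate 1 and the lower one replicate 2. Rfc1 and Tyms have the smallest protein-coding shares, 9.98% to 11.8% and 11.5% to 12.3%, but for Rfc1 the rest has no class in M21.

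Reads were assigned to the 47 genes with little doubt by the authors' own posterior SD. No gene had a posterior SD over 10% of its mean count, the largest being 2.62%, and 44 of 47 were under 1% in both libraries. The processed pseudogene Pcna-ps2 held 20 and 11 counts beside 2556 and 2506 for Pcna. Overlap with genes on the other strand is a separate limit, since the strand setting of the counting is not given in the sources used here. Exon bases were shared with such a gene by 15 of the 47. The share was 25% or more for Fen1, which shares 78.8% with Gm10143 at 2.69 and 1.97 TPM, Gins2, which shares 67.3% with Gse1 at 13.2 and 10.8 TPM, Chaf1a, which shares 52.5% with Ubxn6 at 68.8 and 71.1 TPM, and Orc2, which shares 29.8% with Nif3l1 at 47.3 and 48.4 TPM. Smaller overlaps were with more abundant genes, as for Rfc4, which shares 12.7% with Eif4a2 at 254.8 and 259.2 TPM, Rfc5, which shares 10.7% with Wsb2 at 255.6 and 235.8 TPM, and Orc6, which shares 6.93% with Vps35 at 144.6 and 149.5 TPM. Fen1 also shares 5.37% with Tmem258 at 274.9 and 264.3 TPM, and Cdc45 shares 5.96% with Ufd1 at 83.1 and 93.0 TPM. The values of genes with such an overlap are uncertain, by an amount that was not tested.

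The tissue label was checked against marker genes. Of 9 midbrain identity genes, 8 were at 1 TPM or more in both libraries, led by Meis2 with 71.7 and 61.1 TPM, Otx2 with 66.4 and 66.1 TPM and Pax3 with 11.9 and 9.25 TPM, and En2 was at 1.21 and 0.76 TPM. None of 11 Hox genes, which mark hindbrain and spinal cord, reached 1 TPM in both. Hoxb5 (24 and 3 counts) and Hoxa5 (22 and 1 counts) were nevertheless called as higher in replicate 1. The libraries held 38966386 and 40419493 expected counts, of which spike-ins were 2.30% and 2.42%, and the least covered of the 47 genes in either library had 48 counts. Counting intervals cover counting error only, since copies of 1 molecule made by PCR were not told apart in these values.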

How the data were processed

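Total RNA from E15.5 midbrain was measured in 2 libraries, replicates 1 and 2 per the labels, in 1 group; nothing says more of how the pools differ than the number of embryos, so p-values measure the difference between these libraries. Per the file headers, the authors deposited gene and transcript tables with expected counts, TPM, FPKM and their posterior means with SDs, treated here as scores, and for each transcript its percent share of the gene. Genome mm10 and annotation M4 are named in the notes deposited with the tables; aligner, counter, versions and strand setting were not given in the sources used here. Deposited TPM was scaled over all rows, spike-ins included.

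Symbols, coordinates, transcript names and classes came from GENCODE M21 on the same build, where 42462 of 43346 gene IDs matched. Rows other than Ensembl genes and spike-ins held 5.49e-05% and 2.97e-05% of counts and were left out. Expected counts were rounded to whole numbers. TMM sizes came from edgeR 4.0.16 in R 4.3.3, and the exact binomial test, log2 ratios (0.5 added) and Benjamini-Hochberg adjustment from scipy 1.17.1 and Python 3.11.15. With 1 library per pool no quasi-likelihood fit could be made. The test was checked on simulated data. Alternatives were other scalings (DESeq2 1.42.0 size factors, total counts, spike-ins), filters, folds, pseudocounts and edgeR's exact test. All 47 members may be named; from other lists, genes called between the pools and the 3 highest are named where they bear on the members, and other names were chosen after their values were seen; some results are not reported here. The members and all lists were chosen with earlier results of these data known.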

Additional observations from a re-analysis of the deposited data

How the results depend on the processing

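Of 32 alternatives to the main results, 26 kept the result. Keeping it meant a level within 1 SD, a count within 1.5 times, or a median log2 ratio within 0.0172 of the main one. The limit of 0.0172 came from the log2 width of the counting interval of the summed counts, as the median has no such interval. Some of the 26 were bound to keep the result. The median level with 1 replicate left out always lies within 1 SD of the mean of both libraries. Leaving out genes with a posterior SD over 10% left out none. The median level of the 47 genes was 12.6 in FPKM, 25.5 when TPM was rescaled over protein-coding genes and 15.9 over coding transcripts alone, a choice made after seeing the data, against 21.04 TPM. Without either replicate it ran from 20.7 to 21.4 TPM, and the number of genes at 1 TPM or more from 46 to 47. With no fold threshold 12 of the 47 genes were called instead of 0, and with spike-in totals their median log2 ratio was -0.17 instead of -0.09; spike-in totals moved every ratio by a constant. With the motif core in place of the 4 E2F words, 33 genes matched instead of 15. Posterior mean TPM moved the level of 13 genes by more than their SD. Counted over all 47 genes, it moved 3 by over 10%, and Orc1 by over 1.5 times, to 1.80 and 2.46 TPM. Over all genes the main 298 calls became 67 with a mean of 50 or more counts, a filter that leaves 14810 genes. They became 526 at 1.5-fold, 3524 with no fold threshold and 150 with edgeR's exact test. The pool comparison cannot be made without a replicate. No paired analysis was possible because there is 1 group only. The search for protein motifs was not run. Depth limits the lowest genes most: with 48 and 69 counts, the counting interval of the fold of Orc1 ran from 0.949 to 2.06.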
